A study of Mus musculus with 2 samples.

Results

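The genes described here are 10 genes of copper transport and copper delivery inside cells: Slc31a1, Slc31a2, Atp7a, Atp7b, Atox1, Ccs, Sco1, Sco2, Cox17 and Commd1. They were taken by name from a list of copper transport and chaperone genes, and all 10 were found among the 55487 genes of the count table. Their RNA was measured in sorted small peritoneal macrophages, one of the macrophage types that live in the abdomen, from 5-week-old male SWISS mice with endotoxemia. One library, LPS+LCC-12, pooled 66967 cells of 8 mice that received 20 mg/kg lipopolysaccharide (LPS, from Escherichia coli O55:B5) and, 6 h later, 0.3 mg/kg LCC-12, both into the peritoneum. The other, LPS, pooled 102283 cells of 7 mice that received the LPS without LCC-12. Saline (30 mL/kg, under the skin) was given to every mouse of both pools at 6 h, and all were killed at 22 h. As background, LCC-12 is a small molecule that binds copper in mitochondria. Mice without LPS were not analysed here, so no value below is a level before endotoxemia.

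Copper is a cofactor of a few enzymes and is toxic when free, so cells hand it from protein to protein. CTR1, the product of Slc31a1, brings it through the plasma membrane, and from there separate carriers take it to the secretory pathway, to superoxide dismutase and to cytochrome c oxidase in mitochondria. Macrophages are known to raise copper uptake during inflammation and to pump copper into compartments that hold bacteria.

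None of the 8 copper genes with enough counts to be read differed by 2-fold between the libraries. Slc31a2 stood lowest, at 1.56-fold lower in LPS+LCC-12, and Ccs and Atox1 highest, 1.34-fold and 1.27-fold higher. Slc31a1, Atp7a, Sco1, Cox17 and Commd1 were within 1.2-fold. Sco2 and Atp7b had too few counts to be read. Each group was 1 library, so there were no replicates, no difference was tested against variation between mice, and each compares these 2 libraries only. The intervals given are exact 95% intervals for counting error, which leaves out variation between mice, and copies made by PCR are not independent molecules.

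The libraries held 47721888 counts for LPS+LCC-12 and 50618409 for LPS. A gene was read when the library with more of it held 50 or more counts, and called when it also differed by at least 2-fold. Of 13482 genes read, 4.01% were called higher in the LPS+LCC-12 library and 6.65% lower, against 0 of 8 copper genes in each direction. With 8 genes, a count of 0 in either direction is close to these shares. The median log2 ratio of LPS+LCC-12 over LPS was 0.15 over the 8 copper genes and 0.02 over all genes read. The middle 50% of all genes read lay between -0.27 and 0.26, which holds the values of 5 of the 8. The counting interval lay above 0 for 4 of the 8 and for 36.5% of all genes read, and below 0 for 2 of the 8 and 32.9% of all genes. At this depth counting error alone is small, and an interval that excludes 0 is common.

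The cell label was set against marker genes. All 8 general macrophage markers were read, with summed levels of 8380 CPM (counts per 1000000 of the scaled library) in the LPS+LCC-12 library and 6924 in the LPS library, and none was called. All 7 markers of small peritoneal macrophages were read and 5 were called higher in the LPS+LCC-12 library (668 CPM summed with LPS+LCC-12 and 478 with LPS), as were 5 of the 7 markers of large peritoneal macrophages (763 CPM with LPS+LCC-12 and 273 with LPS). RNA of markers listed for other cell types was present too. All 9 neutrophil markers were read and 7 were called lower, with sums of 3115 CPM in the LPS+LCC-12 library and 8547 in the LPS library. Of 6 mast cell markers 5 were read and called lower (67.0 CPM with LPS+LCC-12 and 211 with LPS). Most of both sums came from Hdc, with 62.3 CPM with LPS+LCC-12 and 197 with LPS. Of 6 mesothelial markers 4 were read and called lower (1.32 CPM with LPS+LCC-12 and 7.65 with LPS), and Wt1 was at 0 counts with LPS+LCC-12. Of 6 fibroblast markers 4 were read and 3 called lower (3.64 CPM with LPS+LCC-12 and 12.4 with LPS), with Lum at 0 in both libraries and Pdgfra at 0 in LPS+LCC-12. The 6 B cell markers were read and none was called (217 CPM with LPS+LCC-12 and 184 with LPS), and of 6 T cell markers 1 was read and not called (1.86 CPM with LPS+LCC-12 and 3.68 with LPS). In such pooled RNA, fewer cells of a type and less RNA per cell cannot be told apart. Whether the RNA of these markers came from other cells or from the sorted macrophages was not tested. The part of any other cells in the values below was not tested either.

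**Figure D1:**
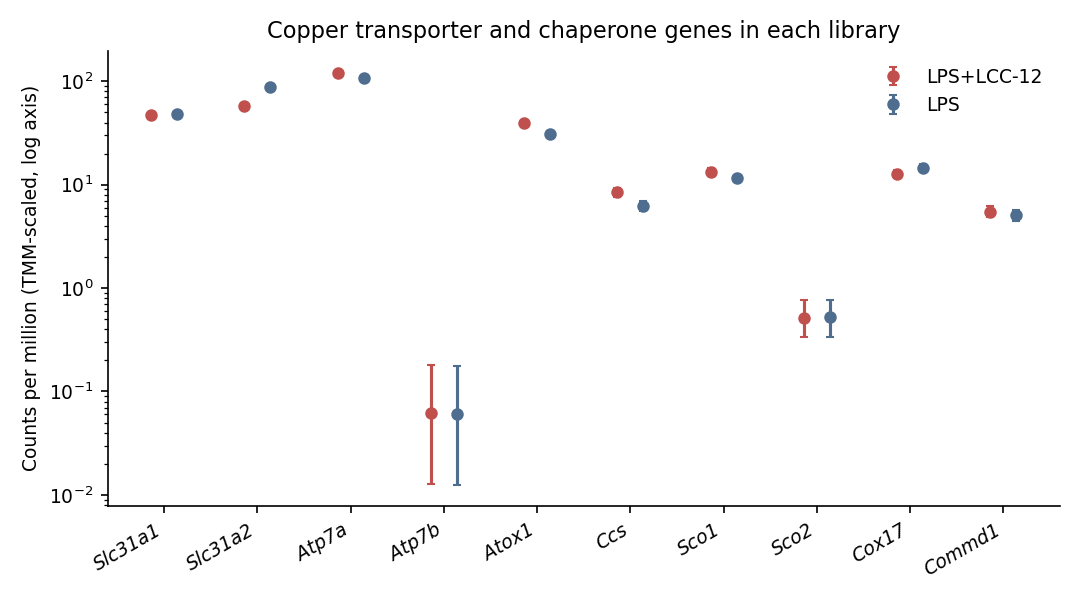
Scaled level of each copper gene in CPM (log axis) in the LPS+LCC-12 library (left point of each pair) and the LPS library (right point), with exact 95% Poisson intervals, many of which are smaller than the points. Atp7a stands highest in both libraries, at 122 CPM with LPS+LCC-12 and 108 with LPS, and Atp7b lowest, with 3 counts in each. CPM is not divided by gene length, and per kilobase of exon Atox1 stands highest in both libraries.

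The first pair are the membrane carriers of the SLC31 family. Slc31a1 encodes CTR1, the high-affinity importer of reduced copper. Slc31a2 encodes CTR2, a related protein found mainly on endosomes and lysosomes, which in mice is known to affect the cleavage of CTR1. The genes lie on the same strand of chromosome 4 in GRCm38 (mm10), Slc31a2 from 62262562 to 62298411 and Slc31a1 from 62360727 to 62391769. They are 62315 bases apart. The sequences around a start of each gene, and around that of Atp7a, are shown because the neighbouring pair differed in its ratios and because the core of the metal response element was found in them in different numbers. That element is bound by MTF1, a transcription factor that responds to metals. The core was searched on both strands as TGCACNC or TGCGCNC, N standing for any base, and capitals mark each match. Each sequence runs from 250 bases before the start to 50 after it on the gene's own strand, 5′ to 3′, from RefSeq on GRCm38.p6.
Slc31a2, chr4:62286179-62286478, plus strand: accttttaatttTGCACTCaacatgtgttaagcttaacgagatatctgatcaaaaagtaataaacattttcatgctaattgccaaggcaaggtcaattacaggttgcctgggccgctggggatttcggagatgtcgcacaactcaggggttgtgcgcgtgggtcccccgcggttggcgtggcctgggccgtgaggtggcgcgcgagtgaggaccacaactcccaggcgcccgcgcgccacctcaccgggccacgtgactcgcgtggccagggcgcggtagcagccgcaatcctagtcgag
Slc31a1, chr4:62360451-62360750, plus strand: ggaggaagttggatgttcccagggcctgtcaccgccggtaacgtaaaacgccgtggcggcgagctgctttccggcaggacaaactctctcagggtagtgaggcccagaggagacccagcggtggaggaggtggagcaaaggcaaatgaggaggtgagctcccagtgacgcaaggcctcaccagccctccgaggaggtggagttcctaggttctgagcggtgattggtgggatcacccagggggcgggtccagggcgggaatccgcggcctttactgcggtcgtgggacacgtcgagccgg
Atp7a, chrX:106026974-106027273, plus strand: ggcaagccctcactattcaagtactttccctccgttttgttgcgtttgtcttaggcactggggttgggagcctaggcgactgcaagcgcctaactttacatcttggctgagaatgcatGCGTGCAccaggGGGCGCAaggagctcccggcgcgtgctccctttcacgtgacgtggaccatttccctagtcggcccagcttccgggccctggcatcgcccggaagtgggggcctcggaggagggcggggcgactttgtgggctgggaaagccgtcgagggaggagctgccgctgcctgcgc

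The Slc31a2 sequence holds 1 match, which begins 238 bases before the start, and the Slc31a1 sequence holds none. The start used for Slc31a2 lies inside the gene span given above and not at its first base. Atp7a holds 2 matches, which begin 132 and 120 bases before the start. Promoter sequences were found for 8 of the 10 genes, 9 sequences in all, and 5 sequences of 4 genes (Slc31a2, Atp7a, Atp7b and Commd1) hold a match. Of 32851 promoters of the same length in the mouse genome, 25.7% hold one. The promoters of the metallothionein genes Mt1 and Mt2, known targets of MTF1, hold 3 and 4. A match here is a description of the letters and not evidence of binding.

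Slc31a1 had 2284 counts in the LPS+LCC-12 library and 2424 in the LPS library, or 47.2 CPM with LPS+LCC-12 and 48.5 with LPS. The libraries could not be told apart within counting error for this gene, with a log2 ratio of -0.04 (interval -0.12 to 0.04). Slc31a2 had 2766 counts in the LPS+LCC-12 library and 4444 in the LPS library, or 57.2 CPM with LPS+LCC-12 and 89.0 with LPS. Its log2 ratio was -0.64 (-0.71 to -0.57), which is 1.56-fold lower with LCC-12 (1.48-fold to 1.63-fold). Of all genes read, 12.2% had a lower ratio than Slc31a2. At a limit of 1.5-fold in place of 2-fold, it was the only 1 of the 8 copper genes to be called lower, against 13.3% of all genes read, and 0 of 8 were called higher, against 9.67%. The marker sums of neutrophils, mast cells, mesothelial cells, fibroblasts and T cells were also lower with LPS+LCC-12. Those of B cells and of all macrophage lists were higher. The part of any of these cell types in the Slc31a2 difference was not tested.

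The ratio of the pair within a library does not depend on how the libraries were scaled. There were 0.826 Slc31a1 counts for each Slc31a2 count in the LPS+LCC-12 library (0.781 to 0.873) and 0.545 in the LPS library (0.519 to 0.573). The first ratio was 1.51 times the second (exact interval 1.40 to 1.63), and the intervals of the libraries did not overlap. Per kilobase of exon, which allows the genes to be compared, Slc31a1 stood at 0.392 of the level of Slc31a2 in the LPS+LCC-12 library and 0.259 in the LPS library. These values depend on the length assumed, and with the shortest protein-coding transcript of each gene they were 0.165 with LPS+LCC-12 and 0.109 with LPS.

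The stretch of chromosome 4 that holds both genes was read as well, with neighbours named after their values were seen. Fkbp15, which encodes an FK506-binding protein family member, lies between them on the other strand and had 7590 counts with LPS+LCC-12 and 9772 with LPS (log2 ratio -0.32, -0.36 to -0.28). It lies 178 bases from Slc31a1. Cdc26, which encodes a subunit of the anaphase-promoting complex, overlaps the end of Slc31a1 on the other strand and had 634 counts with LPS+LCC-12 and 925 with LPS (-0.50, -0.65 to -0.35). It shares 0 exon bases with Slc31a1. Prpf4, a splicing factor gene and the nearest protein-coding gene read past the end of Slc31a1 that does not overlap it, had 700 counts with LPS+LCC-12 and 790 with LPS (-0.13, -0.28 to 0.02), an interval that includes 0 like that of Slc31a1.

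**Figure D2:**
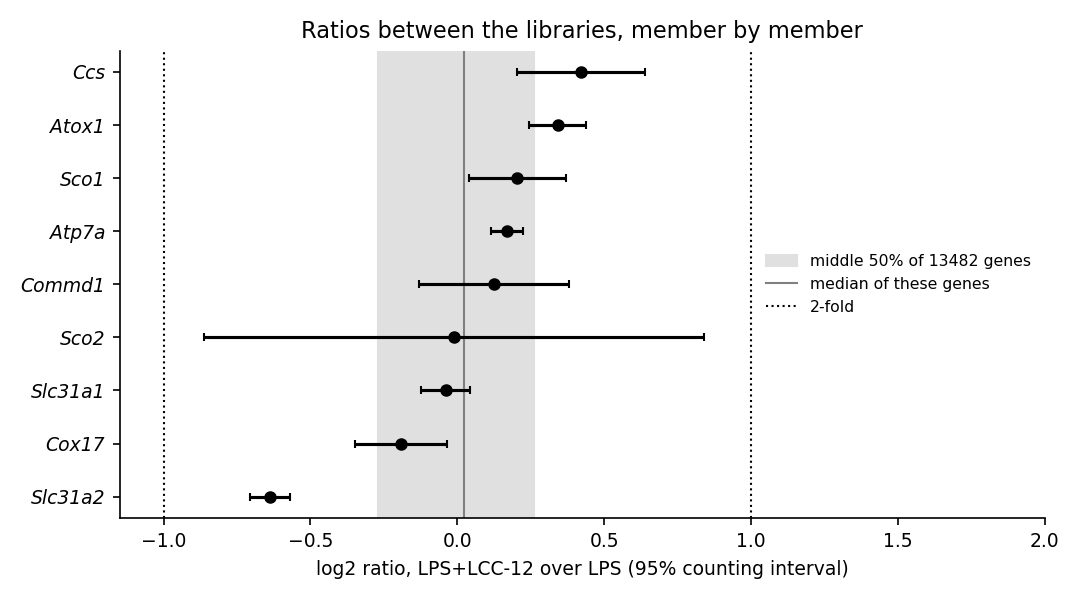
Log2 ratio of LPS+LCC-12 over LPS for the 9 copper genes with more than 3 counts, with exact 95% counting intervals; the grey band is the middle 50% of 13482 genes, the grey line their median, and dotted lines mark 2-fold. Slc31a2 (-0.64) lies below the band, Ccs (0.42) and Atox1 (0.34) lie above it, and no gene reaches 2-fold.

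The second set carries copper to the secretory pathway and out of the cell. Atox1 encodes a small cytosolic chaperone that gives copper to the copper-pumping ATPases encoded by Atp7a and Atp7b. ATP7A is the form of most tissues and ATP7B the form of the liver, where it loads ceruloplasmin and sends copper into bile. Atp7a lies on chromosome X from 106027276 to 106124926, and its joined exons measure 8734 bases. It had 5882 counts in the LPS+LCC-12 library and 5401 in the LPS library (122 CPM with LPS+LCC-12 and 108 with LPS). The log2 ratio was 0.17 (0.12 to 0.22), above 0 by more than counting error and within the middle 50% of all genes.

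Atp7b (chromosome 8, 21992785 to 22060305) had 3 counts in each library. Both values are at the floor of 3 counts, so no ratio is given. Atp7a accounted for nearly all copper ATPase counts in both libraries. Alg11, a glycosylation enzyme gene that starts 415 bases from Atp7b on the other strand, was named after its values were seen. It had 1068 counts with LPS+LCC-12 and 1061 with LPS (log2 ratio 0.06, -0.07 to 0.18).

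Atox1 (chromosome 11, 55446641 to 55461239) had 1913 counts in the LPS+LCC-12 library and 1559 in the LPS library, or 39.5 CPM with LPS+LCC-12 and 31.2 with LPS. It was 1.27-fold higher with LCC-12 (1.18-fold to 1.36-fold, log2 ratio 0.34, 0.24 to 0.44). A higher ratio was found for 19.2% of all genes read. Within a library there were 0.325 Atox1 counts for each Atp7a count with LPS+LCC-12 (0.309 to 0.343) and 0.289 with LPS (0.273 to 0.305). These ratios differed by 1.13 times (1.04 to 1.22). Per kilobase of exon, Atox1 stood at 5.25 times the level of Atp7a with LPS+LCC-12 and 4.66 times with LPS. These values depend on the length assumed, and the longest protein-coding transcripts brought the genes closer. With those lengths Atox1 stood at 73.1 CPM per kilobase and Atp7a at 24.8 with LPS+LCC-12. In the LPS library they stood at 57.7 and 22.1.

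Ccs encodes the chaperone that loads copper into superoxide dismutase 1, the product of Sod1, which removes superoxide in the cytosol. The gene lies on chromosome 19 from 4825366 to 4839332 and has 9 annotated transcripts. It had 407 counts in the LPS+LCC-12 library and 314 in the LPS library, or 8.41 CPM with LPS+LCC-12 and 6.29 with LPS. At 1.34-fold higher with LCC-12 (1.15-fold to 1.56-fold, log2 ratio 0.42, 0.20 to 0.64), it had the highest ratio of the 8 copper genes read, and 15.2% of all genes read had a higher one. Its client Sod1 had 2778 counts with LPS+LCC-12 and 2742 with LPS (log2 ratio 0.06, -0.01 to 0.14). Each Sod1 count was matched by 0.147 Ccs counts in the LPS+LCC-12 library (0.132 to 0.163) and 0.115 in the LPS library (0.102 to 0.129). The first was 1.28 times the second (1.09 to 1.501). Per kilobase of exon, Ccs stood at 0.326 of the level of Sod1 with LPS+LCC-12 and 0.255 with LPS. These values also depend on the length assumed. At a limit of 1.2-fold, chosen after the values were seen, Ccs and Atox1 were the 2 of 8 copper genes called higher, against 24.9% of all genes read, and Slc31a2 the 1 called lower, against 25.5%.

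Another set acts in mitochondria. COX17 carries copper in the space between the mitochondrial membranes and passes it to SCO1 and SCO2, which build one copper site of cytochrome c oxidase, and to COX11, which builds the other. Sco1 (chromosome 11, 67052670 to 67067070) had 643 counts in the LPS+LCC-12 library and 576 in the LPS library (13.3 CPM with LPS+LCC-12 and 11.5 with LPS), a log2 ratio of 0.20 (0.04 to 0.37). Cox17 (chromosome 16, 38346991 to 38352763) had 620 counts in the LPS+LCC-12 library and 731 in the LPS library (12.8 CPM with LPS+LCC-12 and 14.6 with LPS), a log2 ratio of -0.19 (-0.35 to -0.04). The ratios of this pair were of opposite sign, and both intervals excluded 0 narrowly. With total counts in place of TMM, that of Cox17 included 0 (-0.15, -0.31 to 0.00). Cox17 shares 257 exon bases with Gm21987, a protein-coding gene on the same strand, named after its values were seen. Gm21987 had 0 counts with LPS+LCC-12 and 4 with LPS. Since the counting of shared reads is not given in the sources used here, the Cox17 counts are uncertain to that extent.

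Summed over Sco1, Sco2 and Cox17 there were 1288 counts with LPS+LCC-12 and 1333 with LPS, a log2 ratio of 0.00 (-0.12 to 0.11). Cox11, read as the partner of Cox17, had the lowest ratio among the assembly genes, with 193 counts in the LPS+LCC-12 library and 262 in the LPS library (log2 ratio -0.39, -0.67 to -0.12). There were 3.21 Cox17 counts per Cox11 count with LPS+LCC-12 (2.73 to 3.80) and 2.79 with LPS (2.42 to 3.23). The first was 1.15 times the second, with an interval that includes 1 (0.92 to 1.44). Per kilobase of exon, Cox17 stood at 0.792 of the level of Cox11 with LPS+LCC-12 and 0.688 with LPS, values that depend on the length assumed.

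Sco2 (chromosome 15, 89371637 to 89373846) had 25 counts in the LPS+LCC-12 library and 26 in the LPS library, below the minimum of 50. Its log2 ratio of -0.01 had an interval from -0.86 to 0.84, so at this depth a difference of up to about that size could not be seen. Of its 1253 exon bases, 1150 are also exon of Ncaph2, on the other strand, or of Tymp, on the same strand, and 103 are its own. Ncaph2, a condensin subunit gene, had 3151 counts with LPS+LCC-12 and 3093 with LPS (log2 ratio 0.07, 0.00 to 0.15), and Tymp, named after its values were seen, had 4 with LPS+LCC-12 and 5 with LPS. How shared reads were counted is not given in the sources used here, so the low level of Sco2 is uncertain. For each Sco2 count there were 25.7 Sco1 counts with LPS+LCC-12 (17.3 to 40.0) and 22.2 with LPS (15.0 to 34.2). Per kilobase of exon, Sco1 stood at 8.21 times the level of Sco2 with LPS+LCC-12 and 7.07 times with LPS. These values depend on the length assumed and on how shared reads were counted. Adprm, which starts 75 bases from Sco1 on the other strand and was named after its values were seen, had a log2 ratio of -0.44 (-0.62 to -0.26), opposite in sign to Sco1.

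Commd1 encodes a protein that binds ATP7B and ATP7A and takes part in their sorting, and its loss in dogs is known to cause copper build-up in the liver. It spans 86247 bases of chromosome 11 (22896136 to 22982382). It had 266 counts in the LPS+LCC-12 library and 252 in the LPS library (5.50 CPM with LPS+LCC-12 and 5.05 with LPS), a log2 ratio of 0.12 (-0.13 to 0.38) that counting error covers. Zrsr1, a splicing factor gene, lies inside the Commd1 span on the other strand, and 412 exon bases are shared. Zrsr1 had 584 counts with LPS+LCC-12 and 971 with LPS, a log2 ratio of -0.69 (-0.84 to -0.54) in the opposite direction. The kit kept strand, per the labels' protocols, but whether the counting used it is not given. Reads of the bases shared with Zrsr1 therefore cannot be assigned with certainty. Commd1 also shares 294 exon bases with Gm28048, a protein-coding gene on the same strand, named after its values were seen. Gm28048 had 0 counts in both libraries, and strand could not separate it from Commd1.

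**Figure D3:**
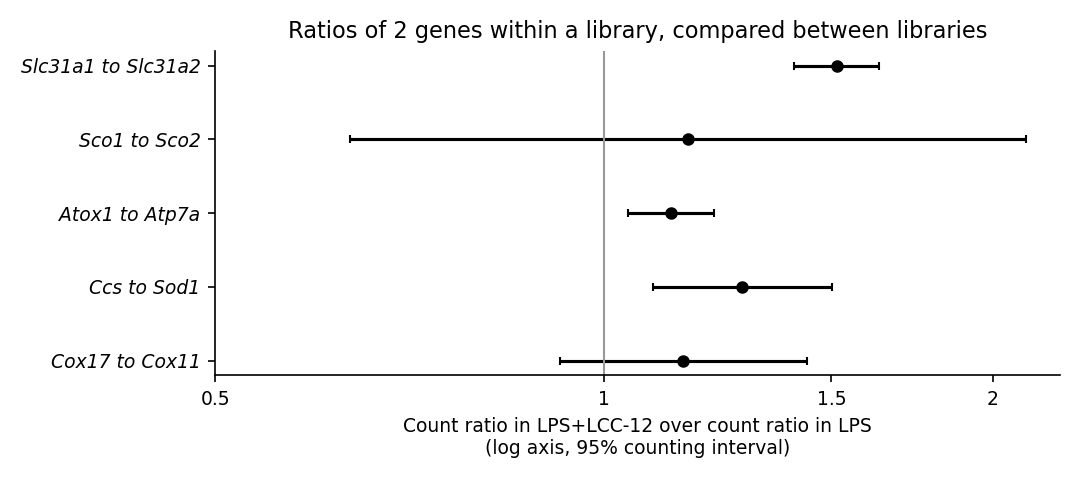
For 5 pairs of genes, the ratio of their counts in the LPS+LCC-12 library over the same ratio in the LPS library (log axis), with exact 95% counting intervals; 1 means an equal ratio in both libraries. The Slc31a1 to Slc31a2 ratio is farthest from 1, at 1.51, and the intervals of Sco1 to Sco2 and of Cox17 to Cox11 include 1.

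Between genes, levels were compared per kilobase of joined exons. In the LPS+LCC-12 library the order was Atox1 (73.1 CPM per kilobase), Slc31a2 (28.1), Atp7a (13.9), Slc31a1 (11.0), Ccs (4.72), Sco1 (3.39), Cox17 (2.22), Commd1 (0.93), Sco2 (0.41) and Atp7b (0.0095). No neighbours in that order had overlapping counting intervals. The LPS library had the same order, with Atox1 at 57.7 and Slc31a2 at 43.8 CPM per kilobase. There the intervals of Ccs and Sco1 overlapped, as did those of Sco1 and Cox17. The gap between Atox1 and Slc31a2 was thus wider in the LPS+LCC-12 library.

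The order depends on the length assumed, most of all for Cox17, whose annotated exons join into 1 block of 5773 bases while its shortest protein-coding transcript has 444. The longest protein-coding transcripts left the order as it was in both libraries, though the distances between levels changed. With the shortest ones, lengths chosen after seeing the data, Slc31a2 came first in both libraries (77.0 CPM per kilobase with LPS+LCC-12 and 120 with LPS), followed by Atox1 (73.1 with LPS+LCC-12 and 57.7 with LPS) and Cox17 (28.9 with LPS+LCC-12 and 33.0 with LPS). Under those lengths the intervals of Slc31a2 and Atox1 overlapped in the LPS+LCC-12 library and were apart in the LPS library. The place of Sco2 in the order is uncertain for another reason. Of its 1253 exon bases only 103 are its own, and how shared reads were counted is not given.

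All 10 genes together had 14809 counts in the LPS+LCC-12 library and 15730 in the LPS library, or 306 CPM with LPS+LCC-12 and 315 with LPS, a log2 ratio of -0.04 (-0.07 to -0.01). Without Slc31a2 the sum was 249 CPM with LPS+LCC-12 and 226 with LPS, and the log2 ratio 0.14 (0.10 to 0.18), an alternative added after seeing the data. The small difference of the full sum also depends on the scaling, as with total counts in place of TMM it was 0.00 (-0.03 to 0.03). Slc31a2 held 18.7% of the 10 genes' counts with LPS+LCC-12 (18.1% to 19.3%) and 28.3% with LPS (27.5% to 29.0%). The share of Atp7a was 39.7% (38.9% to 40.5%) with LPS+LCC-12 and 34.3% (33.6% to 35.1%) with LPS. Slc31a1 held 15.4% in both libraries, and Atox1 held 12.9% with LPS+LCC-12 and 9.91% with LPS. Shares are of counts not divided by gene length, so longer genes weigh more. They add up to a fixed total, so a lower share of Slc31a2 raises the others. Among the 9 genes without Slc31a2, Atp7a held 48.8% with LPS+LCC-12 (47.9% to 49.7%) and 47.9% with LPS (46.9% to 48.8%), with overlapping intervals. Slc31a1 then held 18.97% with LPS+LCC-12 (18.3% to 19.7%) and 21.5% with LPS (20.7% to 22.2%), and Atox1 15.9% with LPS+LCC-12 (15.2% to 16.6%) and 13.8% with LPS (13.2% to 14.5%). Of the counts of all 10 genes, Atp7a, Atp7b and Atox1 together held 52.7% with LPS+LCC-12 (51.8% to 53.5%) and 44.3% with LPS (43.5% to 45.0%).

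**Figure D4:**
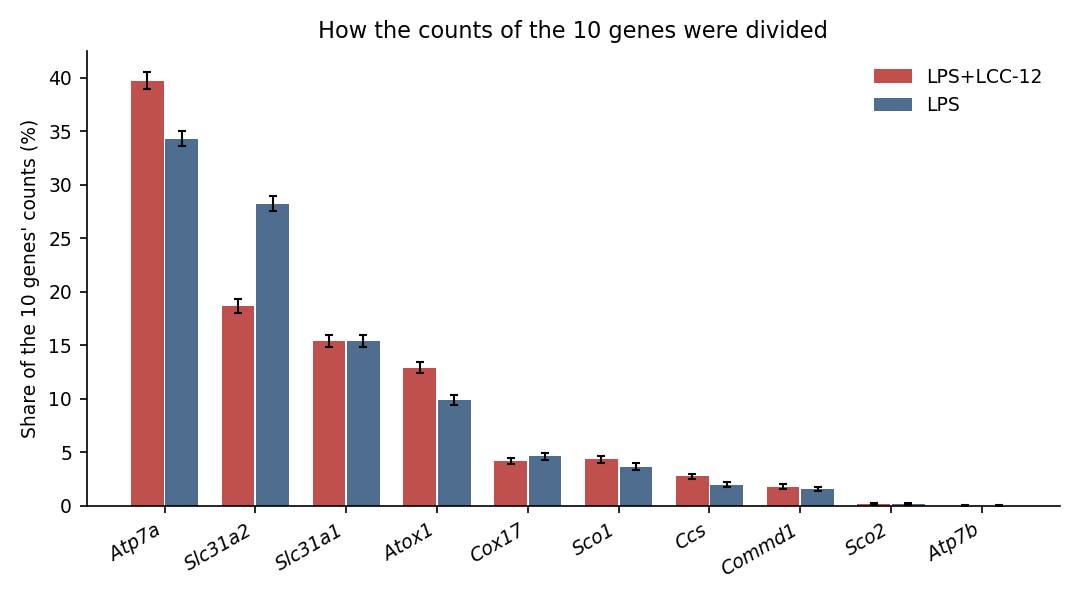
Share of the 10 genes' counts held by each gene (%), with exact binomial 95% intervals, in the LPS+LCC-12 library (left bar) and the LPS library (right bar). Counts are not divided by gene length. Slc31a2 takes 18.7% of the counts with LPS+LCC-12 and 28.3% with LPS, and since shares add up to a fixed total, part of the larger shares of Atp7a and Atox1 with LPS+LCC-12 follows from that; without Slc31a2, Atp7a holds 48.8% with LPS+LCC-12 and 47.9% with LPS.

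The wider copper pathway was read in 6 lists. Of 15 genes for metal reductases, other metal carriers and copper binders, 11 were read, 1 was called higher in the LPS+LCC-12 library and 2 lower, with a median log2 ratio of -0.19. Steap4, a reductase of iron and copper whose product prepares copper for CTR1, had 3531 counts with LPS+LCC-12 and 24236 with LPS (-2.73, -2.78 to -2.68). Steap3, a reductase of endosomes, had 3838 counts with LPS+LCC-12 and 1462 with LPS (1.44, 1.35 to 1.53). Prnp, the copper-binding prion protein, had 634 counts with LPS+LCC-12 and 1626 with LPS (-1.31, -1.45 to -1.18). The metallothionein genes Mt1 and Mt2, whose products store copper and zinc, had log2 ratios of -0.19 (-0.25 to -0.13) and -0.54 (-0.59 to -0.49). Slc25a3, which carries copper and phosphate into the mitochondrial matrix, had 8166 counts with LPS+LCC-12 and 7105 with LPS (0.25, 0.20 to 0.29).

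Of 19 genes for assembly of cytochrome c oxidase, 18 were read and 0 were called in either direction, with a median of 0.00 and a range from -0.39 to 0.49. The 2 with the most counts were Coa5 (-0.15, -0.21 to -0.09) and Pet100 (-0.21, -0.29 to -0.12), both assembly factors. Copper enzymes gave 10 of 19 genes to read, with 2 called higher and 1 lower and a median of 0.06. Lox, the collagen cross-linking lysyl oxidase, had 1672 counts with LPS+LCC-12 and 855 with LPS (1.01, 0.89 to 1.13), and with DESeq2 or upper quartile scaling its ratio was 0.99 or 0.98, under the limit. Hephl1, a ferroxidase, had 105 counts with LPS+LCC-12 and 37 with LPS (1.54, 1.00 to 2.13). Aoc2, an amine oxidase, had 85 counts with LPS+LCC-12 and 237 with LPS (-1.43, -1.81 to -1.07). Cp, the ferroxidase ceruloplasmin, named after its value was seen, had 2851 counts with LPS+LCC-12 and 5836 with LPS. Its log2 ratio of -0.99 was short of the limit and reached -1.01 and -1.02 under those same scalings.

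Of 14 COMMD proteins and partners in the CCC and retriever complexes, which sort ATP7A and other cargo at endosomes, 12 were read and 0 were called, with a median of 0.11 and a range from -0.26 to 0.26. Ccdc93 and Vps35l, core subunits with the most counts, had log2 ratios of 0.08 (0.02 to 0.14) and 0.13 (0.06 to 0.20). All 7 regulators of copper proteins and copper-binding kinases were read with 0 called and a median of -0.21. Among them Xiap, a ubiquitin ligase that acts on CCS and COMMD1, had -0.26 (-0.30 to -0.22), and Sp1, a transcription factor known in human cells to regulate CTR1, had -0.16 (-0.21 to -0.12). Excess copper is known to bind lipoylated proteins, which only some genes of the last list encode. Of its 11 genes of protein lipoylation and lipoylated enzyme complexes, 10 were read, 0 were called, and the median was 0.22. Dlst and Pdha1, enzyme subunits of the oxoglutarate and pyruvate dehydrogenase complexes, had 0.36 (0.31 to 0.40) and 0.34 (0.29 to 0.40).

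**Figure D5:**
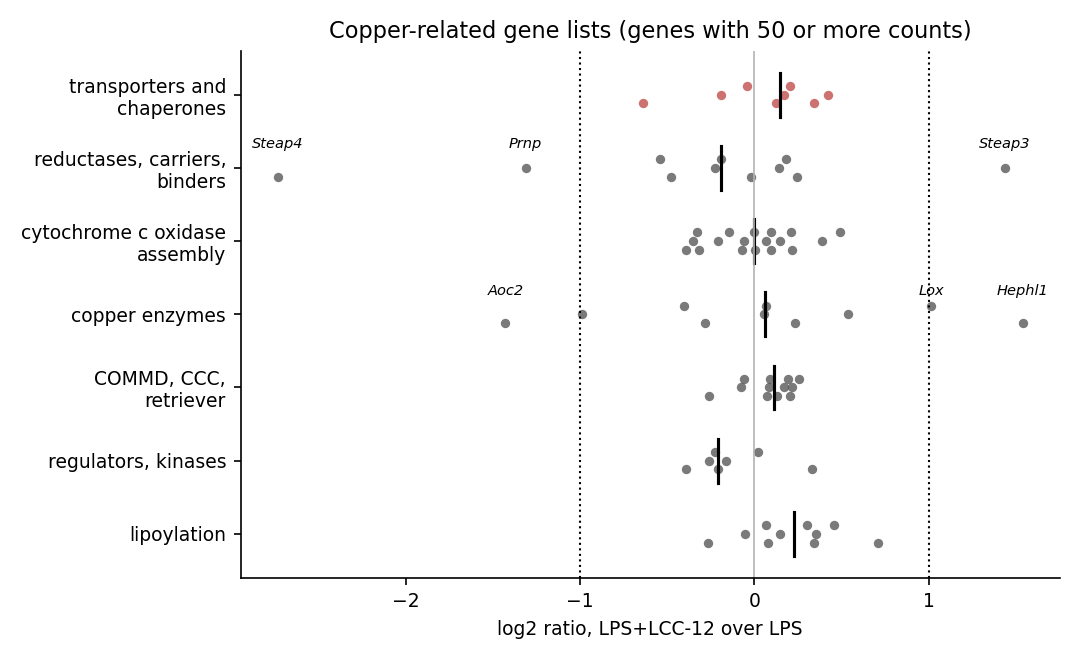
Log2 ratio of LPS+LCC-12 over LPS for each gene with 50 or more counts in the copper genes (red, top row) and 6 related lists (grey); black bars are list medians, dotted lines mark 2-fold, and genes at or past 2-fold are named. Values of the top row run from -0.64 to 0.42, while Steap4, Prnp, Steap3, Aoc2, Lox and Hephl1 lie past 2-fold in 2 of the other lists.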

How the data were processed

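The table deposited by the authors holds unnormalized whole-number counts, with 1 column per library that carries a code found in the labels. Total RNA (10 ng per pool) went, per the labels' protocols, into a stranded low-input kit with ribosomal depletion and 12 PCR cycles. The submitters' processing notes name STAR and mm10; the sources used here do not state how reads were counted, with which annotation or strand setting. Symbols, coordinates and exon lengths came from GENCODE M21 on GRCm38 (mm10), which matched 55394 of 55487 IDs. Library sizes were scaled by TMM (edgeR 4.0.16, R 4.3.3), and the log2 ratio, LPS+LCC-12 over LPS, had 0.5 added counts. No test was run, since each group is 1 library. Intervals are exact at 95% (Clopper-Pearson for splits and shares, Poisson for levels, conditional odds ratio for pairs, SciPy 1.17.1) and cover counting error only. Those of the ratios were checked on simulated Poisson counts, the model they assume. That check held no PCR copies and no variation between mice, so it cannot speak to either. The floor was 3 counts per library. The members, lists and limits were chosen with earlier results of these data known. Named were all members, and list genes past 2-fold or else the 2 with the most counts. Also named were genes overlapping a member with 50 or more counts, Steap4, Mt1, Mt2, Slc25a3 and Sod1, with Cox11 as a pair partner. Other neighbours, Tymp, Gm21987, Gm28048, Cp and Hdc were named after their values were seen. The alternatives were other scalings (totals, DESeq2 1.42.0 size factors, upper quartile), 5 added counts, count minimums of 1, 10 and 200, and limits of 1.5-fold and 3-fold; other lengths, sums and shares without Slc31a2, scalings of the sums and a limit of 1.2-fold were added after seeing the data. A gene similar in pattern could not be named from 2 libraries.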

Additional observations from a re-analysis of the deposited data

How the results depend on the processing

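Across the 4 alternatives of scaling and added counts, 8 of the 9 copper genes with a ratio kept its sign. The exception was Sco2 (-0.01), which became 0.03 with total counts. None of the 36 values left its counting interval. Another scaling shifts every log2 ratio by nearly the same small amount, 0.04 with total counts and less with the others. The 36 values are thus not separate checks. Slc31a2 ranged from -0.67 to -0.60 and Slc31a1 from -0.07 to 0.00. The median over the copper genes ranged from 0.08 to 0.19 under all settings, the lowest with all 10 genes at a minimum of 1 count. The number of copper genes called was 0 in each direction under every setting run except the limits of 1.5-fold, with 0 higher and 1 lower, and 1.2-fold, with 2 higher and 1 lower. Over all genes, 540 higher and 896 lower calls became 4143 and 6439 with a minimum of 1 count, 1462 and 2387 with 10, 298 and 438 with 200, 1304 and 1794 at 1.5-fold, 195 and 340 at 3-fold, and 3354 and 3434 at 1.2-fold, a limit added after seeing the data; these settings change the number of genes tested or the limit itself. The log2 ratio of the 10 genes' sum ranged from -0.07 to 0.00 over the scalings, and without Slc31a2 from 0.11 to 0.18. No paired analysis was possible because each group was 1 library. Depth limits Sco2 and Atp7b, and the missing replicates limit every difference.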
